A study of Solanum lycopersicum with 12 samples.

Results

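The 7 genes of fatty acid oxygenation and C6 aroma synthesis described here were measured in ripening tomato fruit (Solanum lycopersicum). They were taken by identifier from a table of 24215 genes. They are the lipoxygenase genes LOXA (Solyc08g014000), LOXB (Solyc01g099190), LOXC (Solyc01g006540), LOXD (Solyc03g122340) and Solyc01g099180, the hydroperoxide lyase gene HPL (Solyc07g049690) and the alcohol dehydrogenase gene ADH2 (Solyc06g059740). All 7 identifiers were in the table. The rule that picks them uses no measured value, but the members were chosen with earlier results of these data known. RNA-seq libraries were made from the fruits of a red tomato (number 20) and a yellow tomato (number 19), given as closely related. Fruits were 55 days (maturity) or 40 days (color break, when green fruit begins to turn) after flowering. The 4 groups of red at maturity, yellow at maturity, red at color break and yellow at color break held 3 libraries each. The labels give no treatment or allele, no plant of origin for each replicate and no word on seeds. The p-values therefore measure the spread between these libraries alone, and that spread may be technical.

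Lipoxygenases add oxygen to linoleic and linolenic acid, and plants have forms that act at carbon 9 and forms that act at carbon 13 of the chain. Hydroperoxides made at carbon 13 are shared by competing enzymes. Hydroperoxide lyase cuts them into C6 aldehydes such as hexanal, the fresh and green notes of tomato aroma, and alcohol dehydrogenase turns the aldehydes into alcohols. Allene oxide synthase instead passes them toward jasmonate, a hormone of wounding and defence. In tomato, LOXC is the plastid lipoxygenase that feeds C6 volatiles, and LOXD is the plastid form tied to jasmonate.

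Libraries held 50963462 to 60854667 counted reads. The fruit genes PG2A (polygalacturonase), PSY1 (phytoene synthase), E8 (a ripening gene that responds to ethylene) and RIN (a ripening regulator) were present in every group, with mean levels from 235 FPKM (RIN, red at color break) to 5607 FPKM (PG2A, yellow at maturity). PG2A was uneven, at 591 FPKM in red at maturity against 4418 FPKM in red at color break. The other fruit genes named here differed less between groups. FPKM is a level per gene length and sequencing depth, so it can be compared between genes. Replicate 1 of red at maturity stood apart: 2.19% of 15974 tested genes were at least 2-fold above both other libraries of the group, against 0.25% to 0.682% in the other 11 libraries. Products of oleosin genes, of which 4 were listed, coat the oil bodies of seeds, and these 4 genes summed to 1.16 to 15.6 FPKM in red at maturity and 74.4 to 81.1 FPKM in yellow at maturity. At color break they summed to 697 to 745 FPKM in red and 418 to 452 FPKM in yellow, and 2 of the 4 were at 0 in replicates 2 and 3 of red at maturity.

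LOXC was lower in red than in yellow fruit at both stages, while HPL and ADH2 were not called between the tomatoes. LOXB, the most abundant member, rose with age in red fruit. LOXA fell with age in red fruit. LOXD fell in both tomatoes, but it reached the 1 FPKM needed for testing at color break alone, which favours a fall. Its call in yellow was lost without replicate 3 of yellow at color break and with limma. Calls needed an edgeR adjusted p below 0.05 and a log2 fold change of 1 or more in either direction. At maturity 2 of the 7 members were lower in red than in yellow and 0 were higher, where 11.1% of all tested genes were called (7.89% lower and 3.26% higher). At color break 2 were lower and 0 higher, where 6.2% of all genes were called (2.08% lower). Between stages, 1 member rose and 2 fell in red (15.5% of all genes called), and 0 rose and 2 fell in yellow (6.35% called). LOXD was among those that fell in both counts. With replicate 3 of yellow at color break left out, 0 members were called in yellow. With the adjusted p alone and no minimum fold change, 6 of the 7 members passed in each comparison. The share of all tested genes that passed this rule was 57.1% at maturity, 41.5% at color break, 64.3% with age in red and 39.6% with age in yellow. It was 46.7% for the difference between the stage changes. The median log2 fold change of the members was -0.18 at maturity, -0.17 at color break, 0.19 with age in red and -0.42 with age in yellow. The median over all tested genes was 0.00 in each of these comparisons.

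**Figure D1:**
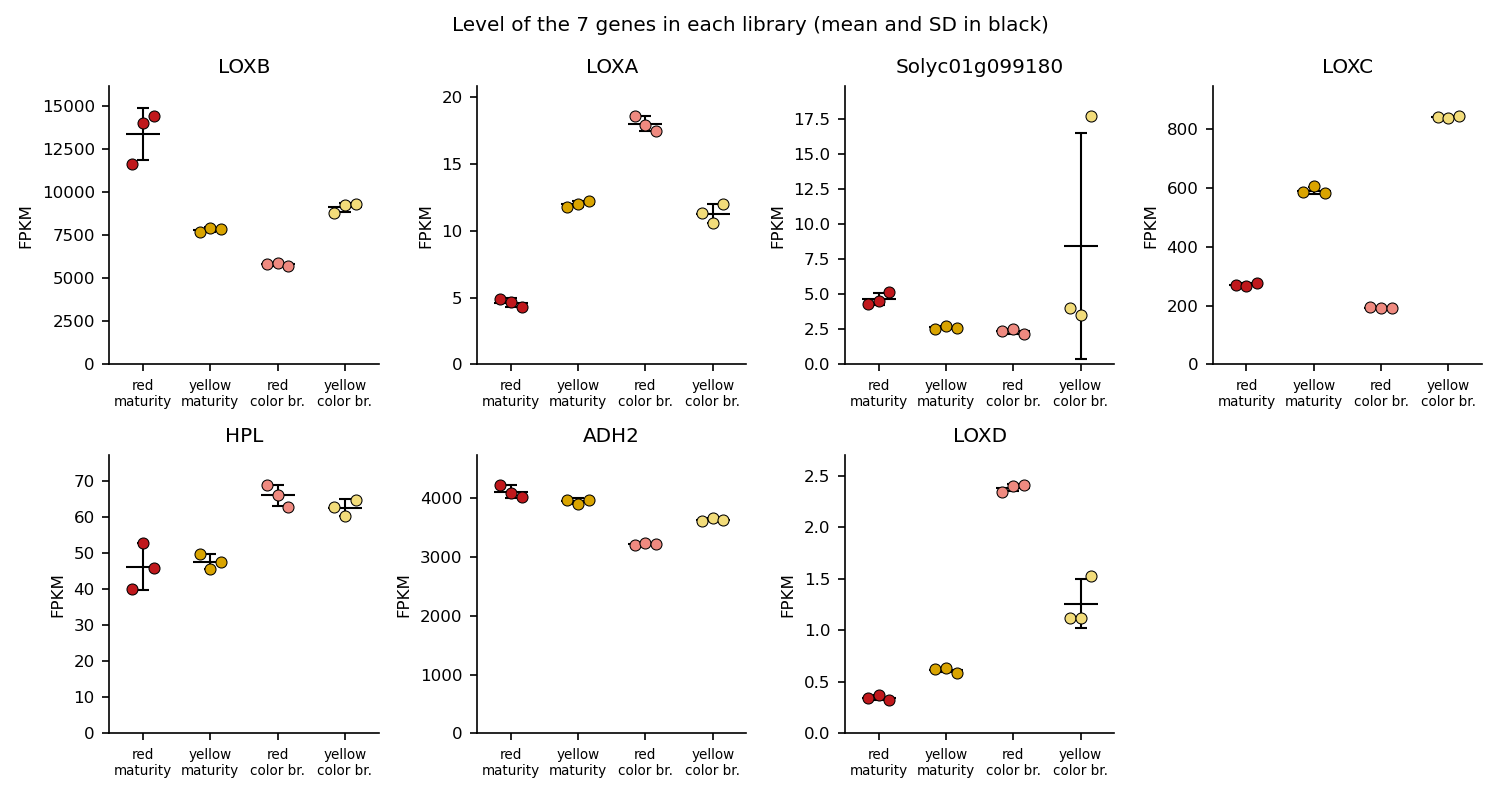
Level of each gene in each library (points, FPKM, axes from 0), with the mean and SD of 3 libraries per group in black. LOXC is lowest in red at color break (191 to 197 FPKM) and highest in yellow at color break (839 to 846 FPKM), and 1 library of yellow at color break stands apart for Solyc01g099180 (17.7 FPKM).

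The C6 route begins with LOXC (chromosome 1, 1113465 to 1123469, plus strand; the genome build of the table is not given in the sources used here). At maturity its libraries held 271, 266 and 276 FPKM in red, against 588, 606 and 582 FPKM in yellow. The groups did not overlap, and red was 2.4-fold lower (log2 fold change -1.26 ± 0.03 SE, edgeR adjusted p = 6.06e-13). At color break the libraries held 197, 192 and 191 FPKM in red, against 841, 839 and 846 FPKM in yellow. Red was 4.36-fold lower there (-2.12 ± 0.03, edgeR adjusted p = 8.9e-15). In bulk fruit, fewer cells of a type and less RNA per cell cannot be told apart, for this gene as for the others.

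LOXC kept a place among abundant transcripts in both tomatoes. By FPKM it ranked 209 to 227 of all 24215 genes in red at maturity, 71 to 76 in yellow at maturity, 370 to 382 in red at color break and 46 to 49 in yellow at color break. With age its level moved in opposite directions, at 1.26-fold higher in red (0.33 ± 0.03) and 1.45-fold lower in yellow (-0.53 ± 0.03), both under the minimum fold change. The difference between these stage changes was 0.86 ± 0.04 on the log2 scale (edgeR adjusted p = 1.3e-09), again under the minimum. The order of the 4 groups was yellow at color break, yellow at maturity, red at maturity and red at color break, and no neighbours in that order overlapped.

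HPL (chromosome 7, 60173653 to 60180108, plus strand), which cuts the hydroperoxide that LOXC makes, did not follow LOXC. Its libraries held 40.0, 52.9 and 45.9 FPKM in red at maturity, against 49.9, 45.6 and 47.5 FPKM in yellow at maturity, and the groups overlapped. The difference was -0.18 ± 0.07 (edgeR adjusted p = 0.0414), too small to be called. At color break they held 68.9, 66.1 and 62.9 FPKM in red, against 62.8, 60.3 and 64.8 FPKM in yellow (0.07 ± 0.07, edgeR adjusted p = 0.429). A range of 2 SE around that value runs from -0.07 to 0.22. Levels were lower at maturity than at color break in both tomatoes, by -0.67 ± 0.07 in red and -0.42 ± 0.07 in yellow, and neither reached the minimum fold change.

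ADH2 (chromosome 6, 37722996 to 37725472, plus strand), the alcohol dehydrogenase of ripening tomato fruit that sets the balance of C6 aldehydes and alcohols, was one of the most abundant transcripts of the fruit. It ranked 4 or 5 by FPKM in red at maturity, 7 in yellow at maturity and 8 or 9 in both tomatoes at color break. Libraries held 4227, 4085 and 4013 FPKM in red at maturity and 3976, 3895 and 3976 FPKM in yellow at maturity. At color break they held 3211, 3234 and 3227 FPKM in red and 3615, 3663 and 3628 FPKM in yellow.

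No comparison called ADH2, and its log2 fold changes ran from -0.17 (red against yellow at color break) to 0.19 (maturity against color break in red). At maturity the deposited FPKM was higher in red, while the TMM-scaled fit gave -0.08 ± 0.03 (edgeR adjusted p = 0.021). With total counts alone the value was 0.01 and on log2(FPKM + 1) it was 0.06, so the direction of this small difference depends on the scaling. On log2(FPKM + 1) the median of all genes at maturity was 0.12.

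Set against HPL within each library, LOXC was at 5.94 ± 0.884 times the HPL level in red at maturity, against 12.4 ± 0.775 times in yellow at maturity (FPKM ratio, mean ± SD, n = 3). At color break the ratio was 2.93 ± 0.0987 in red, against 13.5 ± 0.438 in yellow. The ratio of ADH2 to HPL was 90.1 ± 14.4 in red and 82.9 ± 2.93 in yellow at maturity, and 48.9 ± 2.36 in red and 58.1 ± 2.44 in yellow at color break.

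**Figure D2:**
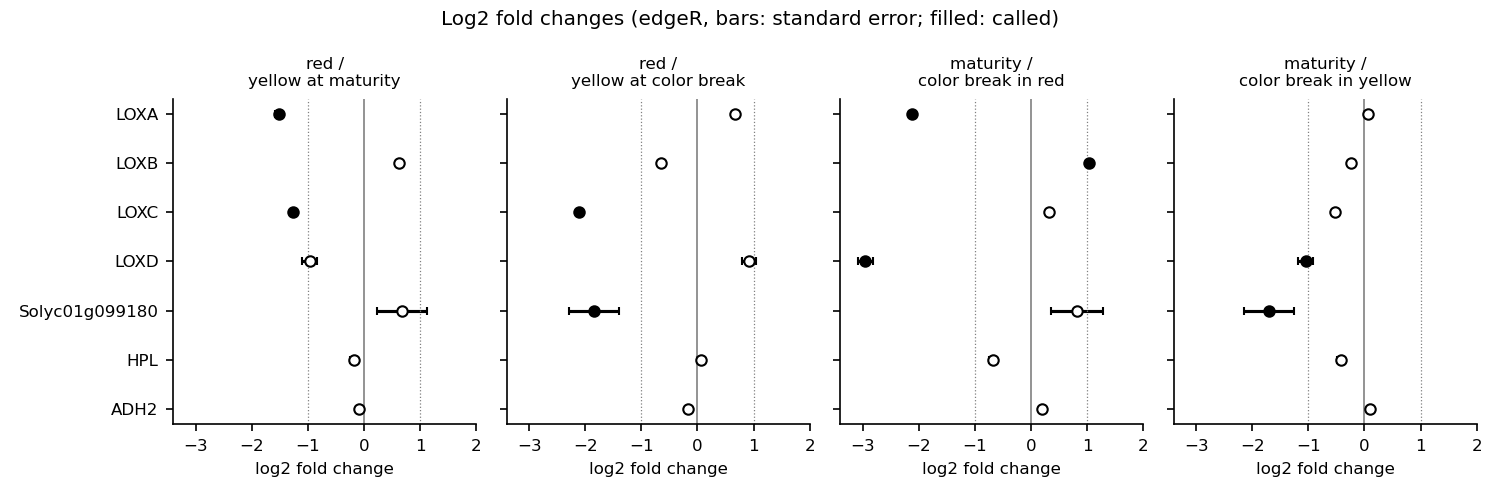
Log2 fold changes of the 7 genes with their standard errors in 4 comparisons (edgeR), filled where called, with dotted lines at the minimum of 1 in either direction. LOXC is called lower in red at both stages (-1.26 at maturity, -2.12 at color break), and LOXA and LOXD are called lower at maturity in red (-2.12 and -2.95).

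LOXB (chromosome 1, 89368523 to 89372043, minus strand) carries the ontology term of a lipoxygenase that acts at carbon 9, a form whose products do not enter the C6 route. Its libraries held 11640, 13994 and 14423 FPKM in red at maturity, against 7669, 7937 and 7862 FPKM in yellow at maturity. At color break they held 5826, 5895 and 5710 FPKM in red, against 8805, 9246 and 9302 FPKM in yellow. In red at maturity it was the most abundant of all 24215 genes by FPKM and took 3.61% to 4.31% of all counted reads. In the other groups it ranked 2 or 3 and took 1.79% to 2.9% of the reads.

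LOXB rose 2.06-fold with age in red (1.04 ± 0.05, edgeR adjusted p = 4.13e-10) and was 1.18-fold lower with age in yellow (-0.24 ± 0.05, not called). The rise in red lay close to the minimum fold change, and without replicate 3 of red at maturity it was 0.98 and not called. The difference of the stage changes was called at 1.28 ± 0.07 (edgeR adjusted p = 5.43e-09). For this difference 2 members were called higher and 2 lower, where 12.2% of all genes were called (3.0% higher, 9.23% lower). Red stood at 0.63 ± 0.05 relative to yellow at maturity and at -0.65 ± 0.05 at color break, and both are under the minimum although the groups did not overlap. The order of levels was red at maturity, yellow at color break, yellow at maturity and red at color break.

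LOXA (chromosome 8, 3511728 to 3518409, minus strand), described in the table as linoleate 9S-lipoxygenase A, ran nearly opposite to LOXB and at a far lower level. Libraries held 4.90, 4.66 and 4.27 FPKM in red at maturity, against 11.7, 11.99 and 12.2 FPKM in yellow at maturity. Red was 2.86-fold lower there (-1.52 ± 0.06, edgeR adjusted p = 1.91e-10). At color break they held 18.6, 17.9 and 17.5 FPKM in red and 11.3, 10.5 and 11.99 FPKM in yellow (0.67 ± 0.06, under the minimum).

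With age LOXA fell 4.36-fold in red (-2.12 ± 0.06, edgeR adjusted p = 3.8e-12), while the yellow groups overlapped (0.06 ± 0.06, edgeR adjusted p = 0.426). The difference of the stage changes was called at -2.19 ± 0.09 (edgeR adjusted p = 2.76e-10). Red at color break was thus highest and red at maturity lowest, with both yellow groups between them. The summed oleosin level was also highest in red at color break and lowest in red at maturity. In yellow it was lower at maturity, where LOXA averaged 11.99 ± 0.244 FPKM at maturity and 11.3 ± 0.721 FPKM at color break. The part of seed tissue in LOXA was not tested. Over the 12 libraries the log2 levels of LOXA and LOXB had a Pearson r of -0.97. This describes 4 groups of 3 libraries, and the points share their group and depth.

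Solyc01g099180 (chromosome 1, 89364505 to 89368041, plus strand), described as a lipoxygenase, had 1 library far above all others. In yellow at color break its libraries held 4.03, 3.505 and 17.7 FPKM (782, 584 and 3524 reads). Red at color break held 2.36, 2.53 and 2.18 FPKM, red at maturity 4.28, 4.53 and 5.17 FPKM, and yellow at maturity 2.55, 2.73 and 2.62 FPKM. The value of replicate 3 was 4.7 times the mean of the other libraries of its group, which ranked 6 among 15938 tested genes. That library did not stand apart as a whole, since 0.326% of tested genes lay at least 2-fold above both others, against 0.351% and 0.344% in replicates 1 and 2.

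Both calls of Solyc01g099180 between 2 groups rested on that library. Red was -1.84 ± 0.45 relative to yellow at color break (edgeR adjusted p = 0.00513), and without the library it was -0.68 and not called. Maturity was -1.70 ± 0.45 relative to color break in yellow (edgeR adjusted p = 0.00846), and -0.54 and not called without it. The difference of the stage changes was 2.52 ± 0.64 (edgeR adjusted p = 0.00548) and still called at 1.36 without it. At maturity red stood at 0.68 ± 0.45 relative to yellow, and maturity at 0.82 ± 0.46 relative to color break in red. Neither was called, although the groups did not overlap. Their SE came from a spread shared by all 4 groups, so it includes that library although neither comparison uses its group. With that library left out, the SE of red against yellow at color break was 0.1.

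The gene lies inside Solyc01g099163 (89360692 to 89368371), an unannotated gene on the opposite strand. The sources used here do not say whether reads were counted by strand, so reads of the pair may be mixed. Solyc01g099163 held 29.6, 29.3 and 33.5 FPKM in yellow at color break, with replicate 3 at 1.14 times the mean of the others. In reads these libraries held 816, 693 and 945 for Solyc01g099163, against 782, 584 and 3524 for Solyc01g099180.

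LOXD (chromosome 3, 71702434 to 71708247, plus strand), the lipoxygenase of the jasmonate route, had the lowest level of the members at maturity in both tomatoes. It passed the filter on low values through its color break libraries alone, since every library at maturity lay under 1 FPKM. Such a filter favours finding a fall with age. Libraries held 0.342, 0.369 and 0.322 FPKM in red at maturity (94 to 105 reads) and 0.625, 0.631 and 0.590 FPKM in yellow at maturity (157 to 198 reads). At color break they held 2.35, 2.399 and 2.41 FPKM in red and 1.123, 1.124 and 1.53 FPKM in yellow.

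LOXD fell 7.72-fold with age in red (-2.95 ± 0.13, edgeR adjusted p = 2.46e-10) and 2.08-fold in yellow (-1.05 ± 0.13, edgeR adjusted p = 1.56e-05). With replicate 3 of yellow at color break left out, the fall in yellow was -0.89 and not called, and limma gave -0.48 on log2(FPKM + 1) and -0.91 on log2(FPKM + 0.1), again not called. The difference of the stage changes was called at -1.89 ± 0.18 (edgeR adjusted p = 1.62e-06), and on log2(FPKM + 1), which understates low genes, it was -0.85 and not called. Red stood at -0.97 ± 0.14 relative to yellow at maturity and at 0.92 ± 0.12 at color break. The group means of LOXD had the same order as the summed oleosin level (red at color break, yellow at color break, yellow at maturity, red at maturity), and so did those of HPL. The part of seed tissue in these levels was not tested. Both differences of LOXD between the tomatoes lay just under the minimum, and each passed it in some fits with 1 library left out (-1.01 without replicate 2 of red at maturity, -1.0 without replicate 3 of yellow at maturity, 1.08 without replicate 3 of yellow at color break). Over all alternatives the differences ran from -1.01 to -0.26 at maturity and from 0.59 to 1.08 at color break.

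Seen across the family, LOXB outweighed all other lipoxygenase transcripts. A list of 17 lipoxygenase identifiers had 13 in the table, of which Solyc01g099150 has no annotation there. LOXB made up 96.8% ± 0.254 of their summed FPKM in red at maturity, 91.8% ± 0.134 in yellow at maturity, 94.9% ± 0.118 in red at color break and 90.3% ± 0.243 in yellow at color break (SD, n = 3). LOXC made up 1.98% ± 0.231 in red and 6.94% ± 0.121 in yellow at maturity, and 3.16% ± 0.0605 in red and 8.34% ± 0.22 in yellow at color break. Per library, LOXB was 42.9 to 52.7 times LOXC in red and 13.1 to 13.5 times LOXC in yellow at maturity. At color break it was 29.6 to 30.8 times LOXC in red and 10.5 to 11.01 times LOXC in yellow.

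**Figure D3:**
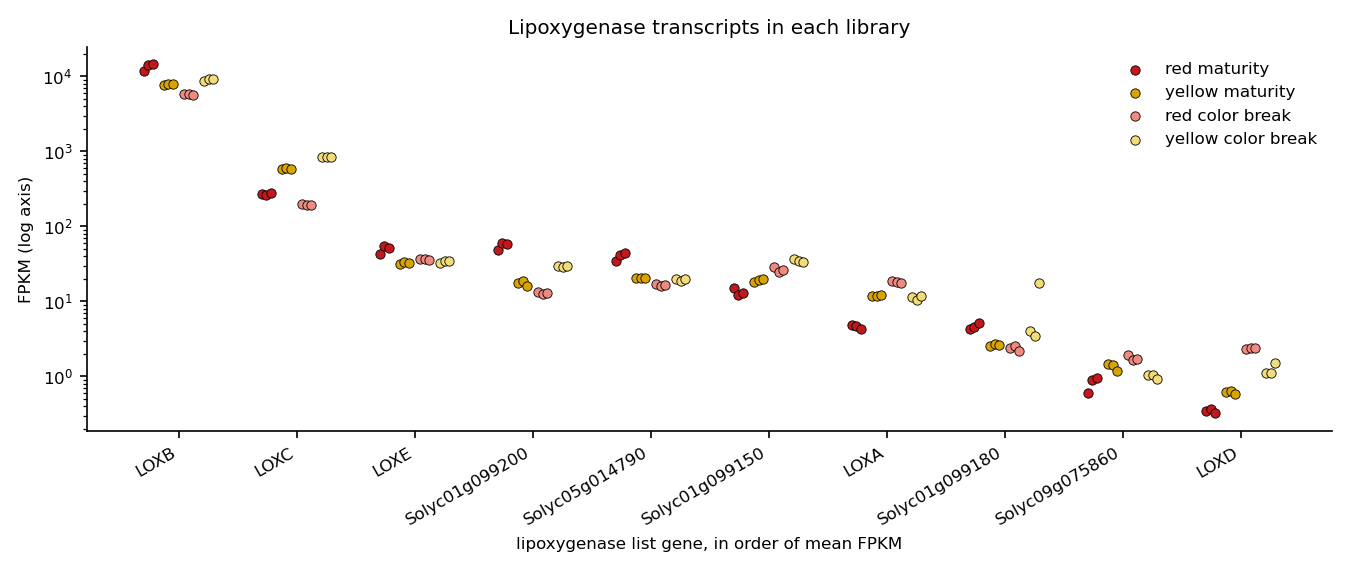
FPKM (log axis) of the 10 lipoxygenase list genes that passed the filter, in each library and ordered by mean level. LOXB lies above every other gene in all 12 libraries, and LOXC is second, with its red libraries below its yellow libraries at each stage.

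Of the 13 family genes in the table, 10 passed the filter. With age in red, 3 of the 10 rose and 4 fell, against 3.93% of all genes higher and 11.5% lower. With age in yellow 0 rose and 2 fell (1.47% and 4.88% of all genes). Both counts of falls include LOXD, which passed the filter through its color break libraries alone. Besides LOXB, the risers in red were Solyc01g099200 and Solyc05g014790, a described lipoxygenase. Solyc01g099200, annotated with lipoxygenase-type oxygenase terms, held 49.0, 59.4 and 57.8 FPKM in red at maturity and 13.2, 12.7 and 13.1 FPKM in red at color break (1.93 ± 0.06, edgeR adjusted p = 5.77e-12). In yellow it held 17.4, 18.5 and 16.2 FPKM at maturity and 30.0, 28.7 and 29.7 FPKM at color break (-0.78 ± 0.06, not called).

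Solyc01g099200 was called higher in red at maturity (1.53 ± 0.06) and lower in red at color break (-1.18 ± 0.06), with a difference of stage changes of 2.72 ± 0.08 (edgeR adjusted p = 3.5e-11). Its order of groups was that of LOXB. Solyc05g014790 averaged 40.0 ± 5.05 FPKM in red at maturity and 16.6 ± 0.308 FPKM in red at color break (1.10 ± 0.06, edgeR adjusted p = 3.17e-09). In yellow it averaged 20.6 ± 0.207 FPKM at maturity and 19.4 ± 0.44 FPKM at color break. Its difference of stage changes was 1.04 ± 0.09, and 0.98 and not called without replicate 3 of red at maturity. LOXE (Solyc01g099160) was not called in any comparison and averaged 32.5 to 49.5 FPKM over the groups.

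The other family genes that fell with age in red, beside LOXA and LOXD, were the unannotated Solyc01g099150 (-1.14 ± 0.08) and Solyc09g075860 (-1.29 ± 0.14), described as linoleate 9S-lipoxygenase 5. Both calls were lost with limma on log2(FPKM + 1), at -0.93 for Solyc01g099150 and -0.62 for Solyc09g075860, and on log2(FPKM + 0.1) Solyc01g099150 was -0.98 and not called. Solyc09g075860 was rare, at 0.608, 0.887 and 0.944 FPKM in red at maturity and 1.95, 1.68 and 1.71 FPKM in red at color break. Its stage changes differed by -1.72 ± 0.19 between the tomatoes (edgeR adjusted p = 7.09e-06), and by -0.86, not called, on log2(FPKM + 1). LOXF, a neighbour of LOXC, was listed at 0 in 11 of 12 libraries and was not tested, like Solyc01g099170 and Solyc12g011040.

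Several of these genes are neighbours. Solyc01g099150, LOXE, Solyc01g099170, Solyc01g099180, LOXB and Solyc01g099200 lie within 49469 bases of chromosome 1 (89341068 to 89390536), with 481 bases between Solyc01g099180 and LOXB. Within that stretch the stage changes in red ran from -1.14 (Solyc01g099150) to 1.93 (Solyc01g099200), and in yellow from -1.70 (Solyc01g099180) to -0.09 (LOXE). With replicate 3 of yellow at color break left out, Solyc01g099180 stood at -0.54 in yellow. The next lowest in yellow, with all libraries, was Solyc01g099150 at -0.90. How reads shared by similar copies were counted is not given in the sources used here, so the values of the rarer neighbours of LOXB are uncertain. Solyc01g099180 averaged 0.0339% of the summed FPKM of the family in red at maturity, 0.0309% in yellow at maturity and 0.0385% in red at color break. In yellow at color break it held 0.0412%, 0.0343% and 0.172%. LOXB made up most of that sum, and whether reads of LOXB add to Solyc01g099180 was not tested.

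**Figure D4:**
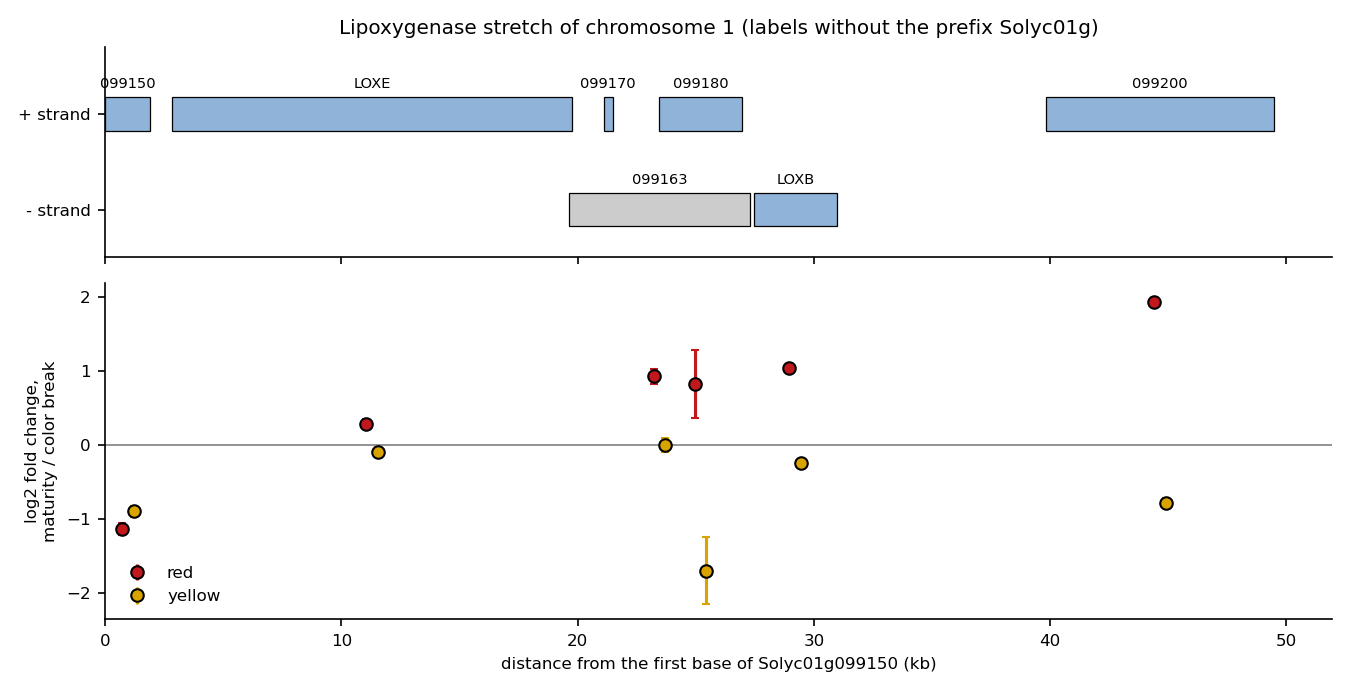
Above, the lipoxygenase list genes of the chromosome 1 stretch (blue) and Solyc01g099163 (grey) by distance from the first base of Solyc01g099150 in kb. Solyc01g099150 and Solyc01g099163 are unannotated. Below, the log2 fold change of maturity over color break in red and in yellow (points, bars are standard errors, slightly offset), where LOXB and Solyc01g099200 lie above 0 in red (1.04 and 1.93) and below it in yellow (-0.24 and -0.78).

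In the competing branch to jasmonate, 1 gene was called in every comparison, where these called 6.2% to 15.5% of all tested genes. AOS2, an allene oxide synthase of the chloroplast and so a rival of HPL for the same hydroperoxide, held 6.44, 7.72 and 6.63 FPKM in red at maturity, against 22.6, 22.6 and 21.5 FPKM in yellow at maturity (-1.82 ± 0.06, edgeR adjusted p = 1.08e-11). At color break it held 67.3, 70.0 and 68.2 FPKM in red, against 8.36, 8.33 and 8.83 FPKM in yellow, which is 8.04-fold higher in red (3.01 ± 0.06, edgeR adjusted p = 1.49e-13). AOS2 thus fell with age in red (-3.47 ± 0.06) and rose in yellow (1.36 ± 0.06), with a difference of -4.83 ± 0.08 (edgeR adjusted p = 9.55e-14). None of these calls was lost under any alternative run.

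Of the 7 genes of the branch list, which holds HPL, 5 were tested. At color break 2 were higher in red and 0 lower, AOS2 and OPR3, the reductase that follows in jasmonate synthesis (1.10 ± 0.13, edgeR adjusted p = 9.64e-06, 4.12% of all genes higher). OPR3 averaged 4.64 ± 0.183 FPKM in red and 2.16 ± 0.331 FPKM in yellow there, and with replicate 1 of yellow left out the log2 fold change was 0.99 and not called. It was 0.84 and not called on log2(FPKM + 1). At maturity AOS2 was the only call, where 7.89% of all tested genes were called lower. AOC, the allene oxide cyclase between them, averaged 25.1 ± 0.741 FPKM in red and 34.9 ± 1.64 FPKM in yellow at maturity (-0.61 ± 0.05, not called), and 30.2 ± 0.532 and 29.9 ± 0.707 FPKM at color break. AOS1 was not called in any comparison. AOS3 and OPR1 did not pass the filter.

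**Figure D5:**
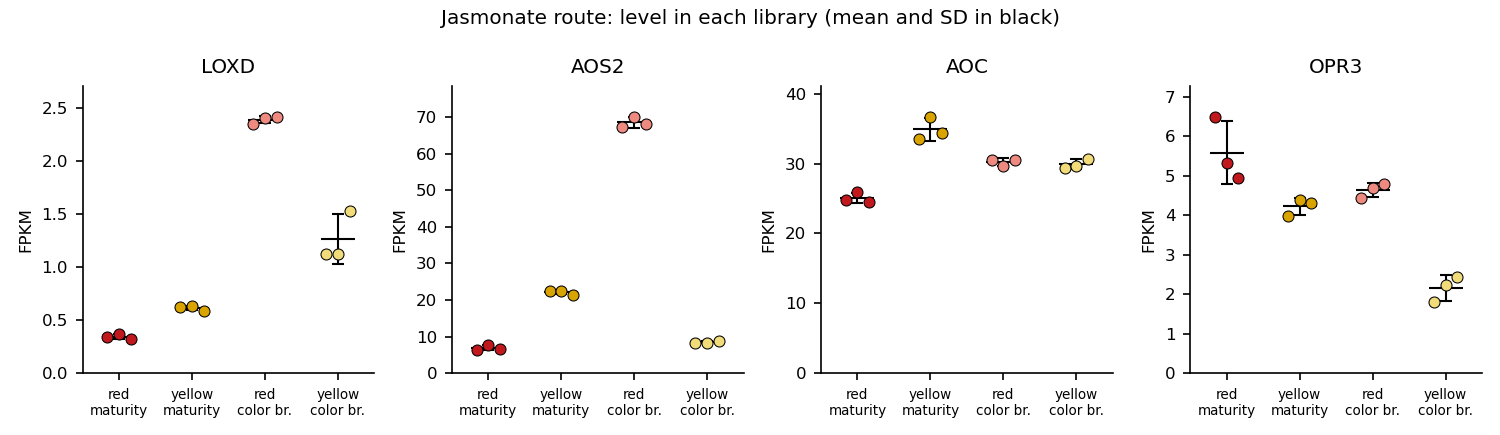
Level of the jasmonate route genes LOXD, AOS2, AOC and OPR3 in each library (points, FPKM, axes from 0), with the mean and SD of 3 libraries per group in black. LOXD and AOS2 are both highest in red at color break (2.35 to 2.41 and 67.3 to 70.0 FPKM), while AOC differs less between groups (24.5 to 36.7 FPKM).

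Among 3 alcohol dehydrogenase genes, ADH1 was the only one called, where the comparisons called 6.2% to 15.5% of all tested genes. It held 0.631, 0.0302 and 0.0729 FPKM in red at maturity (88, 5 and 11 reads), against 3.82, 3.47 and 4.23 FPKM in yellow at maturity (-4.11 ± 0.40, edgeR adjusted p = 1.08e-06, or -6.25 without replicate 1 of red at maturity). At color break it averaged 35.2 ± 1.29 FPKM in red and 16.8 ± 0.771 FPKM in yellow (1.06 ± 0.23, edgeR adjusted p = 0.00185), a call lost with DESeq2 (adjusted p = 0.288) and with limma on log2(FPKM + 0.1). The summed oleosin level had the same order, being also highest in red at color break, lowest in red at maturity and highest in replicate 1 within that group (15.6, 1.16 and 1.73 FPKM). The part of seed tissue in ADH1 was not tested. With age ADH1 fell in red (-7.33 ± 0.36, or -9.47 without that replicate) and in yellow (-2.15 ± 0.25). The difference of its stage changes was -5.17 ± 0.46, or -7.31 without that replicate. ADH2 was far above ADH1 in every library.

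In the supply of fatty acids, Solyc01g095720, described as a chloroplast phospholipase A1, which frees fatty acids from membrane lipids, was lower in red at both stages. It averaged 0.582 ± 0.0692 FPKM in red and 1.38 ± 0.178 FPKM in yellow at maturity (-1.38 ± 0.12, edgeR adjusted p = 3.7e-07). On log2(FPKM + 1) that value was -0.59 and not called. At color break it averaged 2.83 ± 0.0748 FPKM in red and 7.36 ± 0.806 FPKM in yellow (-1.38 ± 0.10, edgeR adjusted p = 1.24e-07). It fell with age in both tomatoes by nearly the same amount (-2.44 ± 0.12 in red, -2.43 ± 0.11 in yellow). The difference of these stage changes was not called (edgeR adjusted p = 0.996). FAD7, the plastid desaturase that makes linolenic acid, stood at -0.93 ± 0.05 in red and -0.77 ± 0.05 in yellow with age and was not called.

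Other genes shared the profiles of the members, as ranked among 2751 tested genes with a name or description and a mean of at least 5 FPKM. Pearson r of log2(FPKM + 1) over the 12 libraries was the measure, and these libraries form 4 groups, so many genes with the same order of groups score high. Closest to LOXC were Solyc05g009530, an acetyltransferase component of the pyruvate dehydrogenase complex (r = 0.98), a Clp protease subunit (Solyc08g075750, 0.98) and the sigma factor gene sigE (Solyc03g007370, 0.97). Closest to LOXA were the NAC gene NAP1, the lipocalin gene Solyc07g005210 and the photosystem II gene PSBO (0.99 each). HPL was most like the NAC gene Solyc07g063420 and the beta-galactosidase gene Solyc09g092170 (0.96 each) and a serine hydroxymethyltransferase gene (Solyc02g091560, 0.95). ADH2 was most like the CONSTANS 1 gene Solyc02g089540 (0.99), a plastid disulfide isomerase gene (Solyc09g091830, 0.98) and Solyc04g010120, a MAEA homolog (0.97). Pearson r ignores the size of a change. Solyc02g089540 averaged 2.67 FPKM in red at color break and 8.54 FPKM in red at maturity, where ADH2 averaged 3224 and 4108 FPKM. It also rests on the deposited FPKM, and the small difference of ADH2 at maturity depends on the scaling. Of the members themselves, LOXD and ADH2 ran most oppositely (r = -0.98) and LOXD and HPL most alike (0.88).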

How the data were processed

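The authors deposited 1 table with a whole-number read count and an FPKM value per gene and library, both per the file headers. Per the submitters' processing notes, the tools were HISAT2 2.2.1, StringTie 2.1.6 and cutadapt 1.9, beside edgeR and DESeq2. What each did, the genome build and the strand setting of the counting were not stated in the sources used. Per the labels' protocols, mRNA was captured on oligo(dT) and the second cDNA strand was marked with dUTP and digested. Counts were tested with edgeR's quasi-likelihood test (edgeR 4.0.16, R 4.3.3, TMM scaling) on the 15974 genes that reached 1 FPKM in 3 or more libraries, in 1 fit of 4 group means, with Benjamini-Hochberg adjustment over all genes. SE is the log2 fold change over the root of the F statistic. Alternatives were DESeq2 1.42.0, limma 3.58.1 on log2(FPKM), other scalings, filters and left-out libraries. The method was tested on simulated data. Every replicate pair differed by more than counting noise (chi-square over its degrees of freedom was 5.36 to 34.7).

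The members and gene lists were chosen with earlier results of these data known. Up to 4 called genes per list and comparison were named, by size of change, and 3 genes most like each of LOXC, LOXA, HPL and ADH2. Of the 2 identifiers listed for the ester genes (AAT1, CXE1), 0 were found in the table, so these genes were not analysed here. The seed list matched 4 oleosins alone, and counts of calls for it were 3 lower at maturity, 0 at color break, and 4 lower with age in each tomato. Fruit markers had 1 call (PG2A, lower) at maturity and with age in red and 0 in the other pairs of groups. Of all tested genes, 7.89% were called lower at maturity, 11.5% with age in red and 4.88% with age in yellow. At color break 6.2% of all tested genes were called in either direction. Same-numbered replicates were checked for pairing and did not pair.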

Additional observations from a re-analysis of the deposited data

Results flagged for a closer look

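For 6 of the 7 members the change from color break to maturity differed between the tomatoes by the test of the difference itself (edgeR adjusted p under 0.05), where 46.7% of all tested genes did. The difference, red minus yellow on the log2 scale, was -2.19 for LOXA, 1.28 for LOXB, 0.86 for LOXC, -1.89 for LOXD, 2.52 for Solyc01g099180 and -0.26 for HPL. The values of LOXC and HPL are under the minimum fold change, and HPL passed narrowly (adjusted p = 0.0493). That of Solyc01g099180 was 1.36 without replicate 3 of yellow at color break. ADH2 had 0.09 (adjusted p = 0.0606).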

How the results depend on the processing

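Of the 35 log2 fold changes of members (7 genes, 5 comparisons), 27 kept their direction and their side of the call under every alternative that kept the call rule. The number of members called with age in yellow was 2, but 1 with limma on log2(FPKM + 1) or log2(FPKM + 0.1). Leaving out single libraries gave 0 to 2 there, with 0 without replicate 3 of yellow at color break. With no minimum fold change 6 members were called in each comparison instead of 2, 2, 2, 3 and 4. ADH2 at maturity (-0.08) was 0.06 with limma on either FPKM scale and 0.01 with total counts alone. The cause was not tested. The shares of LOXB and LOXC moved by less than 1 SD under the alternatives run for them. The median of all genes with age in red was 0.113 with total counts alone and 0.142 with limma on log2(FPKM + 1), against 0.002 with edgeR. That limma fit called 519 genes at color break, 942 at maturity, 563 with age in yellow and 1205 for the difference, against 991, 1781, 1015 and 1954 with edgeR. At maturity its calls were 368 higher and 574 lower, against 521 and 1260 with edgeR. With age in red edgeR called 2471 genes, or 3822 with no filter and 3744 with a minimum of 10 counts, which gave 1542 in yellow.

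Same-numbered libraries did not deviate together (correlations of deviations -0.106 to 0.082), and 1 of 12 libraries correlated best with its own number. With the replicate number as a block, 2, 2, 2, 3 and 4 members were called as before. Libraries of 3 per group limit the precision, and LOXD at maturity rests on 94 to 198 reads per library.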
